A study of Mus musculus with 6 samples.

Results

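Heat shock proteins of the cytosol and of the mitochondrion were examined in adipose tissue of mouse offspring. The set was fixed by name as 10 genes: Hspa8, Hspa1a, Hspa1b, Hsph1, Hsp90aa1, Hsp90ab1, Hspd1, Hspe1, Dnajb1 and Hspb1. A gene was measured where the platform annotation gave a probe set its name, alone or beside a small nucleolar RNA. Where a gene had several, the probe set that stands for it was chosen by its level, as the brightest on average across all arrays; no group difference entered that choice. In this way 9 of the 10 genes were measured, among 22187 genes in all. No probe set was named for Hsp90ab1, which is not analysed here.

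The study took adipose tissue of offspring at 32 weeks of age and compared 3 samples from dams on a chromium restriction diet with 3 from dams on a control diet. Each sample's total RNA was biotin-labelled and read on an array of its own. The sources used here give no strain, genotype, sex, fat depot, chromium content of the diets or period of feeding. Nor do the labels say that samples came from separate animals or litters, so a p-value here reflects sample-to-sample spread that may be technical.

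Heat shock proteins are chaperones: they bind unfolded stretches of other proteins and help them fold, refold or be cleared. HSP70 proteins work in cycles of ATP use that J-domain proteins start and exchange factors end, HSP90 matures kinases and steroid receptors, and in mitochondria HSP60 and HSP10 form a folding chamber and its lid. Several of the genes are switched on by heat shock factor proteins when unfolded proteins build up, while others, such as Hspa8, are expressed in unstressed cells. In adipose tissue HSP90 is known to assist PPARgamma and the glucocorticoid receptor.

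Heat shock factors bind repeats of the unit GAA and its complement TTC. RefSeq promoter windows (GRCm38.p6) matched 7 of the 10 genes, and the 250 bases before the annotated start were searched on both strands. The motif of 3 adjoining units was spelled GAA NN TTC NN GAA or TTC NN GAA NN TTC, with N for any base. It was held by 0.466% of 32851 windows and by 0.514% of 27025 genes, and among the 7 genes by Hspd1 and Hspe1. A gene counted where any of its windows held the motif. A pair of adjoining units, spelled GAANNTTC or TTCNNGAA, was held by 12.8% of windows, by 14.5% of genes and by 6 of the 7 genes. Every match of the longer motif contains matches of both shorter ones. The windows below are shown because they compare the letters of genes whose values are set side by side further on. Capitals mark the bases of the matched units.
Hspd1 and Hspe1, bases shared by both windows, chr1:55087933-55088147, plus strand as read for Hspe1: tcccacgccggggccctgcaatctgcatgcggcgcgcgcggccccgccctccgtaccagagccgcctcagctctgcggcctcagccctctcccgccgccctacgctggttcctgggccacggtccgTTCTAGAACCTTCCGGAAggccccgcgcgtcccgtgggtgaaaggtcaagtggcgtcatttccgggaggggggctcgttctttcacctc
Hspa1a, chr17:34972157-34972406, minus strand: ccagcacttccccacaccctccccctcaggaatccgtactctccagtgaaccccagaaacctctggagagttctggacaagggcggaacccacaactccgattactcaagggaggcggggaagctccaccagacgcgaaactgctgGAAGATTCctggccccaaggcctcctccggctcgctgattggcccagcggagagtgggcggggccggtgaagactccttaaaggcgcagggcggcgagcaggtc
Hspa1b, chr17:34959239-34959488, minus strand: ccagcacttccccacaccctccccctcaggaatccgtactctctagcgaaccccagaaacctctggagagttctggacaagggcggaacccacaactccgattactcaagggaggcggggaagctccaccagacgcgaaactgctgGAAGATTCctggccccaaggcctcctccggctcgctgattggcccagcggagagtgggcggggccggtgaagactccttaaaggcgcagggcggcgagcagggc
Hsph1, chr5:149636337-149636586, minus strand: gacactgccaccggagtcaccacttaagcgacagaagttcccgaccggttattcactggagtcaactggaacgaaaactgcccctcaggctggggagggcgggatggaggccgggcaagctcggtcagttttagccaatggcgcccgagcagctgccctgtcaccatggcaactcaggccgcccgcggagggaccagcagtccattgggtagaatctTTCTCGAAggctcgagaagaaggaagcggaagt
Hspb1, chr5:135887669-135887918, plus strand: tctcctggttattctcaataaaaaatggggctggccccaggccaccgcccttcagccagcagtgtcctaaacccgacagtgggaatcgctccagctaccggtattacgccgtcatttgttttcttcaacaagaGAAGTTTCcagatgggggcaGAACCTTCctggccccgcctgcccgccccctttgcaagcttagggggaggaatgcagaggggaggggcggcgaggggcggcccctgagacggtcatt
Hspd1 and Hspe1 lie head to head in the windows shown and share these 215 bases between those starts, with 4 units in a run of 18 bases. Another window of Hspd1, chr1:55088244-55088493 on the minus strand, took in none of these bases and held no match. The windows of Hspa1a and Hspa1b were the same at 247 of 250 positions and held the same pair of units. Hspb1 held 2 separate pairs and Hsph1 held 1. No match was found in the windows of Dnajb1, which says only that these letters are not in them. Probes for Hspa1a and Hspa1b may not tell these near-identical genes apart, so both are given as uncertain.

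The median log2 value of an array was between 5.44 and 5.57. The extremes differed by group. The lowest value was 3.49 to 3.54 in the chromium restriction arrays and 4.26 to 4.28 in the controls. The highest value was 14.77 to 14.86 in the chromium restriction arrays and 13.81 to 13.89 in the controls. The cause was not tested. The tissue label was checked first: the 11 adipocyte markers averaged 11.99 to 12.19 in the chromium restriction arrays and 12.33 to 12.45 in the controls, and 11 of 11 were lower in the chromium restriction group, Adipoq among them from a row with irregular digits, that is, more digits than nearly all of the deposited table. Transcripts of other tissues set several arrays apart. The mean of 7 liver markers was 11.33 and 10.90 in chromium restriction replicates 1 and 3, 6.55 in replicate 2 and 6.56 to 6.94 in the controls. The mean of 8 intestine markers was 6.86 in chromium restriction replicate 2 and 5.18 to 5.57 elsewhere. All 8 had a higher mean in the chromium restriction group, as had 43.2% of all genes. Sis, Muc13, Alpi, Cdh17 and Krt20 were at 5.82 to 7.55 in chromium restriction replicate 2 and at 4.53 to 5.47 in every other array. Fabp2 was at 7.15 to 7.31 in all chromium restriction arrays and at 5.04 to 5.50 in the controls (adjusted p = 0.00358 in limma). Without the rows with irregular digits no gene passed in limma. The mean of 7 brown fat markers was 8.06 in control replicate 1, 6.40 in control replicate 3 and 5.39 to 5.59 elsewhere. Not every marker of that list followed this mean. Zic1 and Dio2 were at 4.84 to 5.14 in all arrays. Elovl3 was at 7.76 in control replicate 1 and 6.22 in control replicate 3, beside 6.29 and 6.39 in chromium restriction replicates 1 and 3. In RNA of whole tissue, fewer cells of a type and less RNA per cell cannot be told apart.

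None of the 9 heat shock genes passed the comparison of chromium restriction with control. In limma 0 of 9 had an adjusted p under 0.05, where 0.194% of all genes did. At an unadjusted p under 0.05 the count was 1 of 9, Hspa8, against 5.94% of all genes. That share was 10.1% over the 8088 genes at least as bright as the dimmest of the 9. The groups did not overlap for 1 of 9 genes in either direction, Hspa8 again and upward. Of all genes 3.53% did so upward and a further 6.06% downward. Mean values were higher in the chromium restriction group for 6 of 9 genes and for 43.2% of all genes. Over the 9 genes the median log2 difference, chromium restriction minus control, was 0.12 (range -0.060 to 0.54), beside -0.018 over all genes. The sign of that median rested on single arrays: it was -0.0039 without chromium restriction replicate 2 and -0.010 without control replicate 1.

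**Figure D1:**
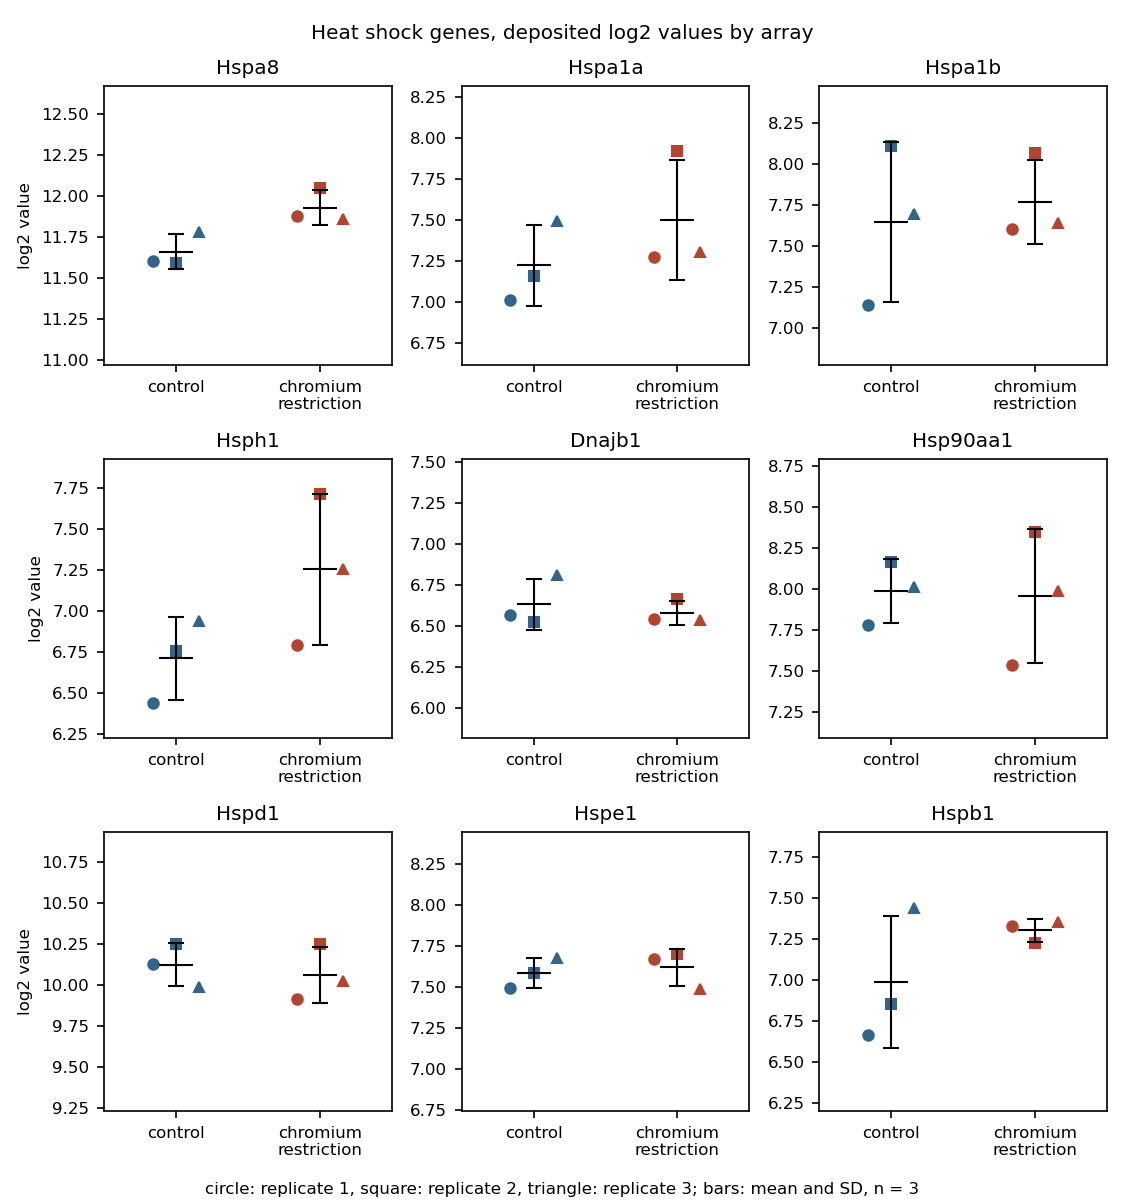
Deposited log2 values of the 9 heat shock genes in each array, with control and chromium restriction on the horizontal axis; bars are mean and SD over 3 arrays, and each panel spans the same number of log2 units around its own centre. The groups are apart for Hspa8 and overlap for the other 8 genes.

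Hspa8 encodes the constitutive HSP70 of the cytosol, which also strips clathrin coats and feeds chaperone-mediated autophagy. Its values were 11.88, 12.05 and 11.86 in chromium restriction replicates 1, 2 and 3, and 11.61, 11.59 and 11.78 in control replicates 1, 2 and 3 (log2). All 3 chromium restriction arrays lay above all 3 controls, by a gap of 0.076. The means were 11.93 ± 0.11 and 11.66 ± 0.11 (SD, n = 3 per group), a 1.21-fold difference. In limma the log2 difference was 0.27 ± 0.093 (SE, 95% interval 0.045 to 0.49) with an adjusted p of 0.805, so the difference did not pass over all genes. With the mean of the probe sets of Hspa8 in place of the brightest, the log2 difference was 0.53 with an adjusted p of 0.611 in limma. That mean takes in a probe set shared with a small nucleolar RNA and others that were highest in the liver-rich arrays, all described below.

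The stress-induced HSP70 genes Hspa1a and Hspa1b had overlapping groups. Hspa1a was at 7.27, 7.92 and 7.30 in chromium restriction replicates 1 to 3 and at 7.01, 7.16 and 7.49 in control replicates 1 to 3. Chromium restriction replicate 2 was high and the other arrays of both groups overlapped. The log2 difference of Hspa1a was 0.28 ± 0.21 (limma SE, 95% interval -0.24 to 0.79, adjusted p = 0.944). Hspa1b was at 7.60, 8.07 and 7.64 under chromium restriction and at 7.14, 8.11 and 7.70 in the controls. Its highest and its lowest value both fell in controls, replicates 2 and 1. The log2 difference of Hspa1b was 0.12 ± 0.26 (limma SE, 95% interval -0.51 to 0.76, adjusted p = 0.991), and without control replicate 1 it was -0.13. Although the upstream windows of the pair are nearly the same, control replicate 2 deviated from the gene's own 6-array mean by 0.40 for Hspa1b and by -0.20 for Hspa1a.

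Hsph1, the HSP110 exchange factor that releases ADP from HSP70, showed the largest difference of the 9 genes. It was at 6.79, 7.71 and 7.26 in chromium restriction replicates 1 to 3 and at 6.44, 6.76 and 6.94 in control replicates 1 to 3. Chromium restriction replicates 2 and 3 lay above every control, and replicate 1 lay within the control range. The means were 7.25 ± 0.46 and 6.71 ± 0.25 (SD, n = 3 per group), a 1.46-fold difference. The log2 difference was 0.54 ± 0.25 (limma SE, 95% interval -0.061 to 1.15) with an adjusted p of 0.818. It fell to 0.31 without chromium restriction replicate 2, the array with the highest mean of intestine markers. The part of intestinal transcripts in the difference was not tested.

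Dnajb1, the J-domain protein that stimulates ATP use by HSP70, differed little. Its values were 6.54, 6.67 and 6.54 under chromium restriction and 6.56, 6.53 and 6.81 in control replicates 1 to 3. Control replicate 3 was the high array and the others lay close together. The log2 difference was -0.052 ± 0.10 (limma SE, 95% interval -0.29 to 0.19, adjusted p = 0.991).

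Hsp90aa1, the inducible cytosolic HSP90, had the widest spread under chromium restriction after Hsph1. It was at 7.54, 8.35 and 7.99 in chromium restriction replicates 1 to 3 and at 7.78, 8.17 and 8.01 in control replicates 1 to 3. The lowest and the highest of the 6 values both fell in the chromium restriction group, replicates 1 and 2. The log2 difference was -0.029 ± 0.22 (limma SE, 95% interval -0.55 to 0.50, adjusted p = 0.997).

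The mitochondrial pair Hspd1 (HSP60) and Hspe1 (HSP10), which share the promoter with 4 adjoining units shown above, had overlapping groups. Hspd1 was at 9.92, 10.25 and 10.03 under chromium restriction and at 10.13, 10.25 and 9.99 in the controls. Hspe1 was at 7.67, 7.70 and 7.49 under chromium restriction and at 7.49, 7.59 and 7.68 in the controls. Arrays high for Hspd1 were not all high for Hspe1: control replicate 3 was the lowest control for the former and the highest for the latter. The log2 differences were -0.060 ± 0.12 for Hspd1 (95% interval -0.34 to 0.22) and 0.036 ± 0.091 for Hspe1 (95% interval -0.18 to 0.26), as limma estimates with SE. Both intervals leave out a 1.5-fold change either way at these array numbers, and the adjusted p in limma was 0.991 for Hspd1 and 0.994 for Hspe1.

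Hspb1, the small heat shock protein HSP25 that holds unfolded proteins and guards actin filaments, was even across the chromium restriction arrays and uneven across the controls. Its values were 7.33, 7.22 and 7.35 under chromium restriction and 6.67, 6.86 and 7.44 in control replicates 1 to 3. Control replicates 1 and 2 lay below every chromium restriction array, and control replicate 3 lay above them all. The means were 7.30 ± 0.068 and 6.99 ± 0.40 (SD, n = 3 per group). The log2 difference was 0.32 ± 0.20 (limma SE, 95% interval -0.16 to 0.79, adjusted p = 0.905). It was 0.54 without control replicate 3 (adjusted p = 0.621 in limma) and 0.16 without control replicate 1. A second, dim probe set of Hspb1 differed by 0.0054, between means of 5.29 and 5.29.

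**Figure D2:**
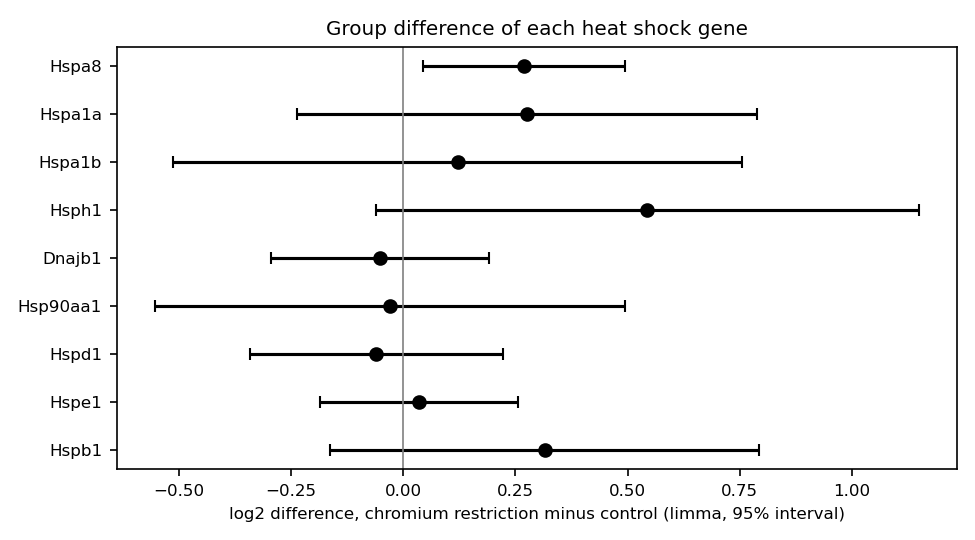
Log2 difference of each heat shock gene, chromium restriction minus control, on the horizontal axis, with points for the limma estimate and bars for its 95% interval. The interval of Hspa8, 0.045 to 0.49, lies above 0 before adjustment, and the other 8 intervals cover 0.

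Probe sets annotated to Hspa8 did not all rank the arrays alike. Besides the one that stood for the gene, 4 others carried its name, 1 of them together with Snord14e, a small nucleolar RNA of the box C/D class whose gene lies within an intron of Hspa8. Small nucleolar RNAs of this class guide methylation of ribosomal RNA. The probe set named for Snord14e and Hspa8 was at 9.77, 9.73 and 9.71 in chromium restriction replicates 1 to 3 and at 9.10, 9.09 and 9.20 in control replicates 1 to 3. The chromium restriction arrays were nearly level and lay above all controls by a gap of 0.51. Means were 9.74 ± 0.027 and 9.13 ± 0.060 (SD, n = 3 per group), a 1.52-fold difference.

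When all 33793 probe sets were tested together, the Snord14e and Hspa8 probe set was higher under chromium restriction by 0.60 ± 0.061 on the log2 scale (limma SE) with an adjusted p of 0.0424, where 0.148% of all probe sets passed. The size was steady and the call was not. Over 14 other settings the difference ran from 0.58 to 0.64, and the adjusted p ran from 0.0380 to 0.562, passing in 2. Without the rows with irregular digits the adjusted p was 0.531, with each array centred on its median 0.168, and with the filter on dim probe sets 0.204. Leaving out 1 array ended the call except for chromium restriction replicate 2: the adjusted p was 0.229 without chromium restriction replicate 1, 0.292 without replicate 3, and 0.294, 0.295 and 0.140 without control replicates 1, 2 and 3. The difference was 0.60 with the liver markers as a covariate (adjusted p = 0.158 in limma). In chromium restriction replicate 2 alone, the 1 array left without the liver-rich arrays, the value lay 0.60 above the control mean.

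Set against the brighter Hspa8 probe set on the same array, the Snord14e and Hspa8 probe set stood at -2.11, -2.32 and -2.15 under chromium restriction and at -2.50, -2.50 and -2.58 in the controls (log2). The groups did not overlap, and the mean of this within-array value was higher by 0.34 under chromium restriction. An exact two-sided permutation test over the 6 arrays gave p = 0.10, the smallest it can give with 3 against 3, so it cannot pass 0.05. The pair was set side by side after the values were seen, and whether the 2 probe sets differ in their change is not settled by these arrays.

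The remaining 3 probe sets named for Hspa8 alone followed another order of arrays. In one (17548379) the values were 9.63, 9.09 and 9.63 under chromium restriction and 8.64, 8.77 and 9.08 in the controls. Another (17548744) was at 9.66, 9.04 and 9.63 against 8.65, 8.79 and 9.09. The dimmest (17434475) was at 7.95, 7.49 and 7.85 against 6.88, 7.24 and 7.48. In all 3, chromium restriction replicates 1 and 3 were high and replicate 2 lay beside control replicate 3. Their log2 differences were 0.62, 0.59 and 0.57, with an adjusted p over all probe sets in limma of 0.900, 0.925 and 0.924. Replicates 1 and 3 are the arrays rich in liver transcripts. Replicate 2 alone lay 0.25, 0.19 and 0.29 above the control mean in these 3 probe sets. In the probe set standing for Hspa8 it lay 0.39 above that mean. With the liver markers as a covariate the log2 differences of the 3 were 0.26, 0.20 and 0.28. For the probe set standing for Hspa8 the covariate fit gave 0.37. That fit leans on replicate 2, and liver RNA as a cause was not tested.

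**Figure D3:**
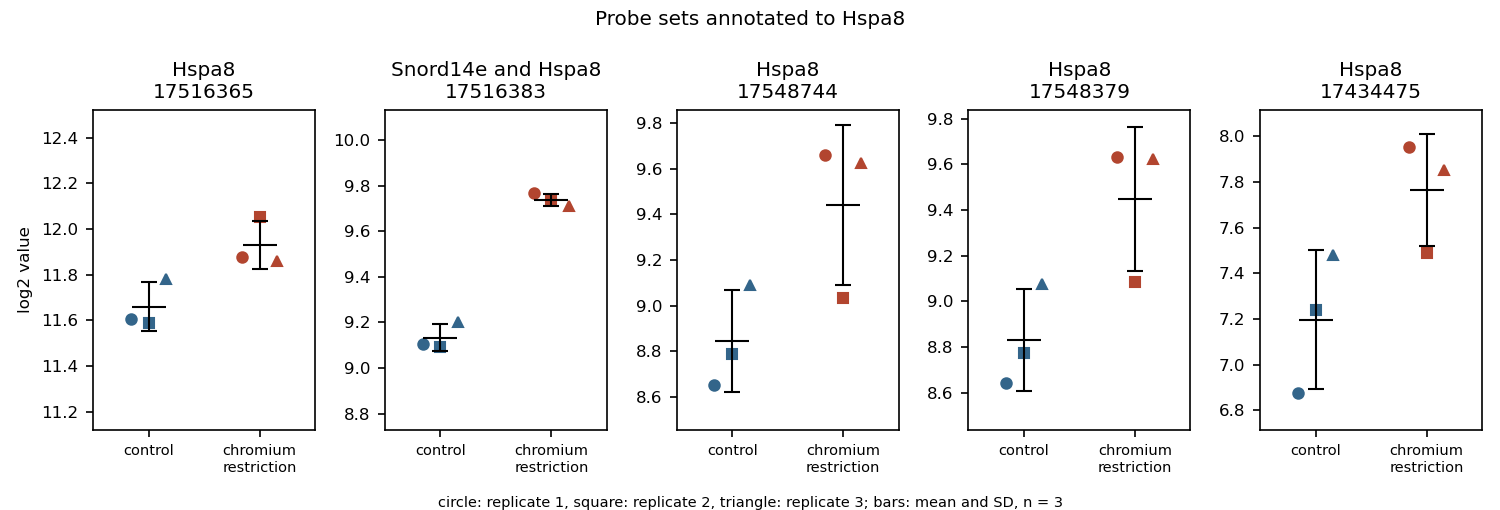
Log2 values of the 5 probe sets annotated to Hspa8, by array, with the platform's probe set number above each panel; bars are mean and SD over 3 arrays. The probe set shared with Snord14e has tight groups with a gap of 0.51, and in the 3 panels to its right chromium restriction replicates 1 and 3 sit above replicate 2.

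One further dim probe set was named for both Hspa1a and Hspa1b. It was at 5.12, 5.04 and 5.02 under chromium restriction and 4.84, 4.98 and 4.83 in the controls, without overlap between groups, as for 3.54% of all probe sets in this direction. All 6 values lay below the array medians. The log2 difference was 0.18 ± 0.071 (limma SE), with an adjusted p of 0.926 over all probe sets.

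Highest and lowest values of the 9 genes gathered in single arrays. Chromium restriction replicate 2 gave the highest of the 6 values for 5 of 9 genes, Hspa8, Hspa1a, Hsph1, Hsp90aa1 and Hspe1, and for 12.9% of all genes. Control replicate 1 gave the lowest value for 4 of 9, Hspa1a, Hspa1b, Hsph1 and Hspb1, and for 15.7% of all genes. The mean deviation of the 9 genes from their own 6-array means was 0.30 in chromium restriction replicate 2, -0.27 in control replicate 1 and between -0.080 and 0.063 in the other 4 arrays. The median SD within groups was 0.29 for the 9 genes, against 0.15 over all genes and 0.20 over the 8088 genes at least as bright as the dimmest of them. Chromium restriction replicate 2 also had the highest means of intestine markers (6.86) and immune markers (8.27, against 7.27 to 7.68 elsewhere). Control replicate 1 had the highest mean of brown fat markers (8.06) and the lowest of mesothelial markers (6.41, against 7.31 to 7.89 elsewhere). Brown fat markers were also raised in control replicate 3, where the heat shock genes deviated by 0.063. The part of these tissues in the heat shock values was not tested.

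**Figure D4:**
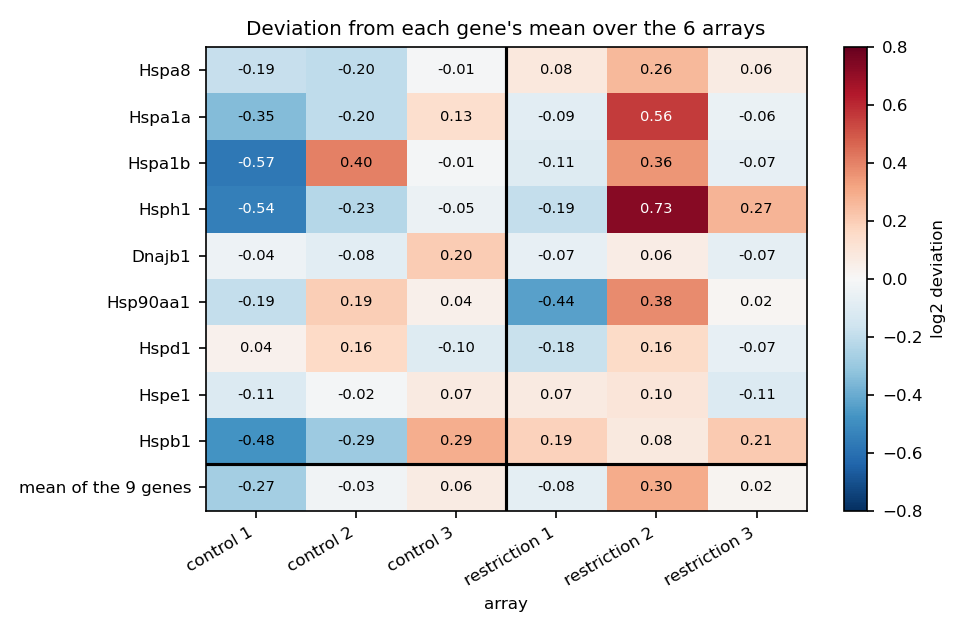
Deviation of each heat shock gene from its own mean over the 6 arrays (log2, colour scale and printed values), with arrays on the horizontal axis and the mean of the 9 genes in the bottom row. Chromium restriction replicate 2 (mean 0.30) is highest and control replicate 1 (mean -0.27) is lowest.

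Of 2 listed cold-inducible RNA-binding proteins 1 was measured, Cirbp. It was at 7.85 in control replicate 1, the array with the lowest mean of heat shock genes, and at 6.83 to 7.05 in the other 5. The opposite did not hold at the other end. In chromium restriction replicate 2, with the highest mean of heat shock genes, Cirbp was at 6.94, within the range of those 5. Its group difference was -0.31 ± 0.25 (limma SE, adjusted p = 0.954). Among genes whose range over the arrays was at least that of the mean of the 9 (0.57), the profiles nearest to that mean were those of Duox1, Glipr2, Slc15a4, Prim1, Gramd3, Nfkb2, Muc2 and Copg1. Their root mean square distance from it over the 6 arrays was 0.041 to 0.087 log2 units, out of 5517 genes compared. Muc2 encodes a mucin of the intestine and Nfkb2 a subunit of NF-kappaB. That these genes were highest in chromium restriction replicate 2 and lowest in control replicate 1 follows from how they were chosen.

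Other genes of the chaperone network were taken from 8 lists, in which 86 of 92 genes were measured. None of the 86 passed an adjusted p of 0.05 in limma, and at an unadjusted p under 0.05 there were 3 higher and 2 lower, together 5 of 86, against 5.94% of all genes. The median log2 difference over the 86 was 0.0044, with 44 higher and 42 lower. Of the heat shock factors, the regulators of the family, 3 of 4 were measured, Hsf2, Hsf4 and Hsf5, with log2 differences of -0.084, 0.0027 and -0.077; Hsf1 is not analysed here. Among 8 other HSP70 relatives 5 were higher and 3 lower, with Hspa13 at -0.28, Hspa12b at 0.20 and Hspa4l at 0.12.

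Co-chaperones split both ways. Of 13 measured HSP70 co-chaperones 4 were higher and 9 lower (median -0.050), and the nucleotide exchange factor Bag1 had the smallest p, with a log2 difference of -0.37 ± 0.21 (limma SE, adjusted p = 0.880). Dnajc7 and St13 were at -0.23 and -0.18. Of 14 HSP90 co-chaperones 9 were higher and 5 lower (median 0.026). Fkbp5, the immunophilin induced by glucocorticoids that tempers their receptor, was at 6.54, 6.76 and 6.62 under chromium restriction and 7.53, 7.19 and 6.93 in the controls. Every control lay above every chromium restriction array, as also for Bag1 and for 6.06% of all genes. The log2 difference was -0.58 ± 0.16 (limma SE) with an adjusted p of 0.708. Fkbp4 and Ahsa2 were at 0.19 and -0.16.

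Of the other mitochondrial chaperones and proteases 12 of 13 were lower and 1 higher, with a median log2 difference of -0.27; over the 8088 brighter genes 36.7% were higher and the median was -0.062. The groups did not overlap for 4 lower members, Afg3l2, Clpb, Trap1 and Dnaja3, and for 1 higher, Grpel2, while 6.06% and 3.53% of all genes did so in these directions. Hspa9, the mitochondrial HSP70, differed by -0.30 and Trap1, the mitochondrial HSP90, by -0.29; none of the 13 passed in limma. Grpel2, an exchange factor for Hspa9, differed by 0.34 ± 0.086 (limma SE, adjusted p = 0.638). Afg3l2 and Lonp1, proteases of the inner membrane and the matrix, were at -0.27 and -0.34. The mean of the 13 was 7.97, 8.32 and 8.30 in chromium restriction replicates 1 to 3 and 8.39, 8.32 and 8.46 in control replicates 1 to 3. Chromium restriction replicate 1, the array with the highest liver markers, was thus low. Control replicates 1 and 3 were those with the highest means of brown fat markers. The part of either tissue was not tested.

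TRiC and prefoldin, which fold actin and tubulin, had 9 of 13 members higher (median 0.060), with Tcp1 at 0.15, Pfdn6 at 0.099 and Cct7 at 0.11. The other small heat shock proteins had 5 of 8 higher (median 0.064), with Hspb7 at 0.36, Hspb6 at -0.16 and Hspb9 at 0.13. Of the markers of skeletal muscle, where some of these proteins abound, 4 of 8 were higher and 4 lower, with means of 6.02 to 6.35 under chromium restriction and 6.12 to 6.18 in the controls. Chaperones of the endoplasmic reticulum had 10 of 14 higher (median 0.091). The groups did not overlap for 2 of 14, Creld2 and Manf, both upward, as for 3.53% of all genes in this direction. These 2 genes differed by 0.44 ± 0.16 and 0.21 ± 0.084 (limma SE), each with an adjusted p of 0.818, and Sdf2l1 by 0.39. Hspa5, Hyou1, Dnajb11 and Dnajb9 of the same list had overlapping groups, with log2 differences of 0.11, 0.060, -0.070 and -0.26.

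**Figure D5:**
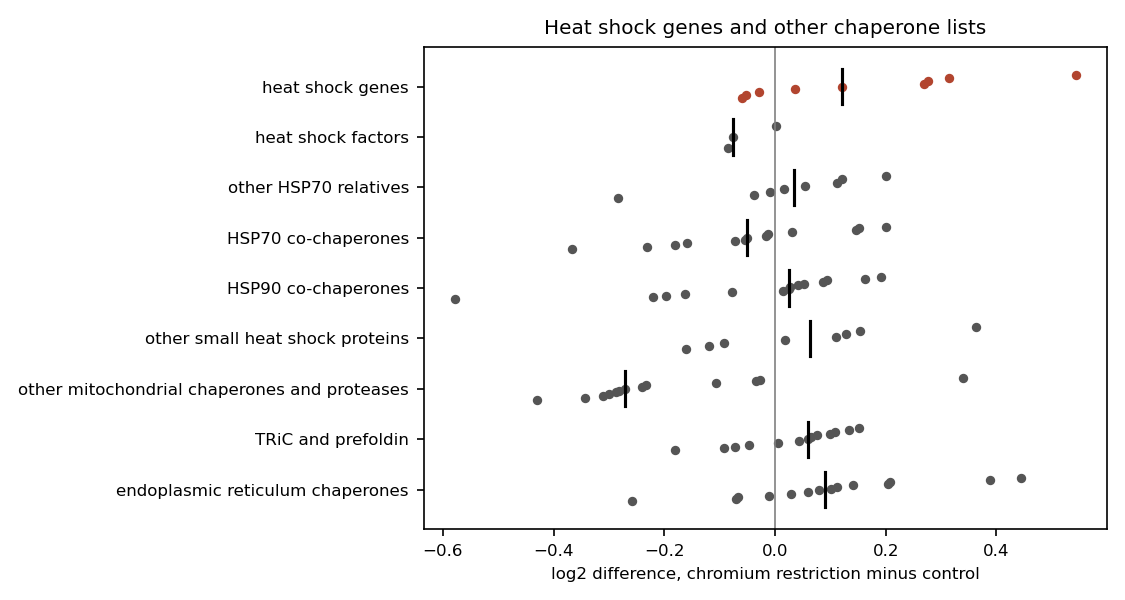
Log2 differences, chromium restriction minus control, of the 9 measured heat shock genes and of the members of 8 other chaperone lists; each point is a gene and each vertical bar the median of its row. The medians lie between -0.27 for the mitochondrial list and 0.12 for the heat shock genes.

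Among early response and clock genes 0 of 30 passed in limma, and 16 of 30 had an unadjusted p under 0.05, against 0.194% and 5.94% of all genes. Of 16 immediate early genes 14 were higher (median 0.26), as were 43.2% of all genes, with Fos at 1.09 ± 0.23, Dusp1 at 0.56 ± 0.14 and Ccn1 at 0.90 ± 0.25 (limma SE, adjusted p = 0.522, 0.637 and 0.708). Their mean was 7.74, 7.74 and 7.72 in chromium restriction replicates 1 to 3 and 7.30, 7.46 and 7.47 in control replicates 1 to 3, so control replicate 1 was lowest here as for the heat shock genes. Of 14 clock genes 5 were higher and 9 lower, with Dbp at -1.02, Arntl at 0.81 and Npas2 at 0.66. Whether these differences bear on the heat shock values was not tested.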

How the data were processed

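Per the labels, total RNA of offspring adipose tissue was run on 6 biotin arrays. The deposited values (33793 probe sets) were taken to be log2 from their range; the sources used here do not state the authors' summarisation, normalization, log base or background, and the number of arrays limits the precision. Of the deposited values, 183 in 64 probe sets carried irregular digits, none in a probe set of the heat shock genes. The platform annotation gave 1 symbol to 23521 probe sets, several to 1814 and none to 8458; 39 naming 1 gene beside small nucleolar RNAs counted for that gene. The brightest probe set stood for each of 22187 genes, with no filter on dim ones. The group contrast was fitted by limma 3.58.1 (lmFit, eBayes; R 4.3.3), and p-values, two-sided, were Benjamini-Hochberg adjusted over every gene, or over every probe set where a probe set did not stand for its gene. The script was tested on simulated data. Members and lists were chosen with earlier results of these data known, so no list was tested. Named genes were the members and their probe sets, up to 3 genes of a list by p, and the 8 nearest profiles without predicted loci or small RNAs. Clpb, Trap1, Dnaja3, Hspa9, Hspa5, Hyou1, Dnajb11 and Dnajb9 were named after their values were seen. Alternatives covered the scaling (quantile, median), dim genes, eBayes with trend and robust options, the mean of probe sets or all probe sets as units, a replicate block, single arrays or both liver-rich arrays left out, rows with irregular digits left out, and the liver markers as covariate. Those for probe sets that do not stand for a gene were added after seeing the data.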

Additional observations from a re-analysis of the deposited data

How the results depend on the processing

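Over 16 alternatives 0 of 9 heat shock genes and 0 of up to 86 other chaperone genes passed, with single arrays left out (0 to 0 for each) as otherwise. The median log2 difference of the 9 genes was 0.35 with the liver markers as covariate and 0.36 without both liver-rich arrays, and all 9 were higher in both. The second setting sets 1 chromium restriction array, replicate 2, against 3 controls that alone give the spread. As that array had the highest mean of heat shock genes, the choice fixed an upward shift, and the first setting leans on the same array. With single arrays left out the median ran from -0.010 to 0.23. Hspa8, Hspa1a, Hsph1 and Hspb1 were higher in all 16 alternatives, but the sizes moved: Hspa8 from 0.21 to 0.53, Hspa1a from 0.067 without chromium restriction replicate 2 to 0.70 without both liver-rich arrays, Hsph1 from 0.31 in the former setting to its highest in the latter, and Hspb1 from 0.16 to 0.54. Signs of small differences turned: Hsp90aa1 was at 0.0056 with quantile normalization, 0.35 with the covariate and 0.36 without both arrays; Hspd1 at 0.12 and 0.13 and Dnajb1 at 0.016 and 0.033 in the latter 2 settings; Hspe1 at -0.00095 with median centring. With single arrays left out, Hsp90aa1 ran from -0.22 to 0.18, Hspd1 from -0.15 to 0.014, Dnajb1 from -0.11 to 0.037, Hspe1 from -0.010 to 0.10 and Hspa1b from -0.13 to 0.35. The dim Hspb1 probe set was at -0.0036 with quantile normalization, -0.012 with median centring, -0.13 with the covariate, -0.14 without both arrays and from -0.062 to 0.081 with single arrays left out. The cause was not tested. Without the rows with irregular digits 0 of 22138 genes passed in limma and 1264 had an unadjusted p under 0.05. Over all genes, 43 passed as reported, 439 without chromium restriction replicate 2, 24 without replicate 3 or without any 1 control, 6 without both liver-rich arrays and 0 with the replicate block.

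The replicate block left 0 heat shock genes past the test, with a median of 0.12, and the adjusted p of the Snord14e and Hspa8 probe set was 0.562. The labels give same-numbered arrays no link beyond the number. The correlation of their deviations from the group means was -0.13, -0.10 and 0.12 for replicates 1, 2 and 3. For chromium restriction replicate 1 with control replicate 2 it was 0.30. Whether arrays shared a batch or litter was not tested. Dim values, such as those of the second Hspb1 probe set, are limited by a background that is not given.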

Other observations

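Other marker lists gave these values. Immune markers had a higher mean under chromium restriction in 8 of 8, as had 43.2% of all genes. Their list means were 7.68, 8.27 and 7.32 in chromium restriction replicates 1 to 3 and 7.27 to 7.64 in the controls. Itgax, Ptprc, Cd3e, Ms4a1 and Cd79a were highest in chromium restriction replicate 2, and Lyz2, Cd68 and Adgre1 in replicate 1. In replicates 1 and 3 Cd3e, Ms4a1 and Cd79a lay within or below the control range. Endothelial markers were higher in 3 of 5, with means of 8.89 to 8.99 against 8.73 to 9.20. Mesothelial markers were higher in 5 of 5, with means of 7.31 to 7.56 against 6.41 to 7.89, control replicate 1 being the lowest array. Pancreas markers were higher in 2 of 4, with means of 5.04 to 5.25 against 5.12 to 5.18. Of the sex-linked genes 4 of 5 were measured, and Xist was at 10.07 to 10.56 in all 6 arrays while the Y-linked Eif2s3y, Kdm5d and Uty were at 4.50 to 5.20.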
